A study of Mus musculus with 4 samples.

Results

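Antibody genes were examined in islets, which are groups of endocrine cells within the pancreas, from C57BL/6 mice aged 5 to 6 months. The labels name WT littermates and mice carrying a GPR41 transgene (41 Tg, here Tg), and each group has 2 arrays. GPR41, also called FFAR3, senses short-chain fatty acids. The labels do not say which promoter drives the transgene or whether an array holds islets of 1 mouse or of several. All islets were kept in RPMI medium before RNA extraction. The genes studied here are the immunoglobulin heavy chain, kappa and lambda light chain genes and Jchain. They were selected by gene symbol in the array annotation, which gave 37 of 27037 probesets, a probeset being a group of probes designed for a transcript. The family itself was chosen from its readout, after a kappa V segment had stood out in the Tg minus WT difference of these same arrays. The differences between Tg and WT are therefore given as a description of these arrays, and no test of them is read.

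An antibody is built of heavy and light chains. In a developing B cell, a variable (V), a joining (J) and, for the heavy chain, a diversity segment are joined by recombination, and the joined exon is transcribed with a constant region. Each B cell clone thus transcribes its own choice of V segments, and its descendants, the plasma cells, transcribe it at very high levels and secrete the antibody. The J chain is a separate polypeptide that links IgM and IgA into polymers. Endocrine islet cells do not make antibodies, whereas lymph nodes and leukocytes that reach the pancreas may carry B cells and plasma cells.

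Of the 37 probesets, 16 name heavy chain genes, 18 name kappa genes, 1 names both, 1 names the lambda segment Iglv1 and 1 names Jchain. A single symbol is given for 32 and several symbols for 5, and related segments are similar in sequence. They name 25 different genes, of which 24 were found in the RefSeq gene table for GRCm38.p6 (20 V segments, 2 constant regions, 1 J segment and Jchain), while Igh-VS107 was not. Segments share probes, so each probeset is reported on its own and they are not independent of each other. Ighm, the constant region of IgM, is the only symbol of 7 probesets, and the annotation does not say whether each of them reads the constant region itself.

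The transgene was visible on the arrays. Ffar3, the mouse gene for GPR41, had log2 values of 7.09 and 6.47 in WT and 11.02 and 10.98 in Tg (difference 4.22, SE 0.21). The tissue label held as well, with a mean log2 value of 12.25 and 12.11 in WT and 12.12 and 12.14 in Tg over 10 islet hormone and beta cell genes. Over all probesets, Pearson's r was 0.991 between the WT arrays, 0.994 between the Tg arrays and 0.986 to 0.987 across the groups. Values are on the log2 scale throughout, so a difference of 1 is a doubling. Bulk RNA cannot tell more cells of a type from more RNA per cell.

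All 37 probesets had a higher group mean in Tg than in WT islets. The median member had a Tg minus WT difference of 2.58, or 5.97-fold, where the median of all probesets was -0.01. The differences ran from 0.29 for Igkv8-19 to 6.52 for Igkv9-120. At least 2-fold higher were 31 of the 37, against 0.999% of all probesets. In 35 of the 37 both Tg arrays lay above both WT arrays, which was the case for 19.1% of all probesets. Among the 100 probesets of the whole table with the largest difference, 30 were of this family, and among the top 10 there were 3. With limma and Benjamini-Hochberg adjustment over all probesets, 12 of the 37 were past an adjusted p of 0.05 as higher, against 0.666% of all probesets, and 0 as lower, against 0.192%. Since the family was chosen on this contrast, nothing is read from these calls. The count was 21 without Tg replicate 1, 5 with the replicate number as a block and 0 without variance moderation. The median difference lay between 2.09 and 3.06 when each array was left out in turn.

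**Figure D1:**
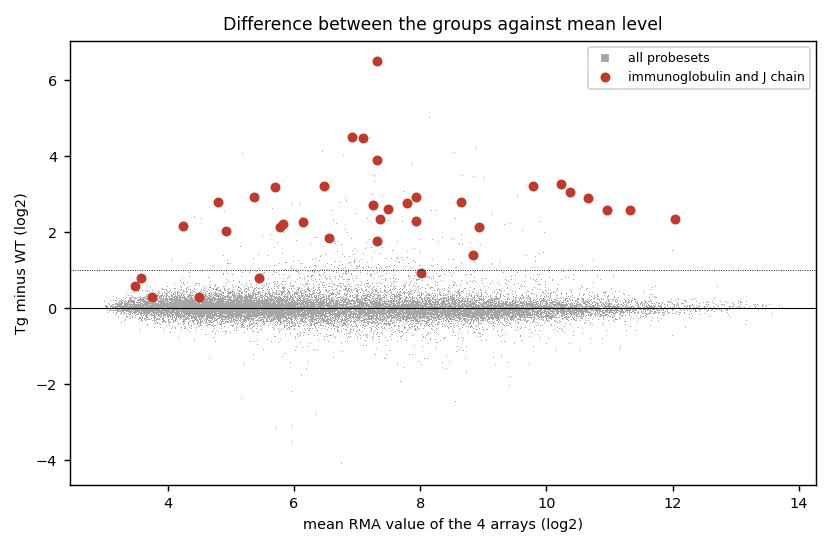
Difference between group means (Tg minus WT, log2) against the mean value of the 4 arrays (log2) for all 27037 probesets (grey) and the 37 immunoglobulin and J chain probesets (red); the dotted line marks a difference of 1. All 37 lie above 0 and 31 above the dotted line; of the 24 members above the median level of all probesets, 23 lie above the dotted line.

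The IgM heavy chain gave the most probesets. Ighm probeset 17284349 had 8.39 and 8.77 in WT and 11.27 and 12.47 in Tg (difference 3.29, SE 0.38). Ighm probeset 17284360 had 9.02 and 8.67 in WT and 11.03 and 12.77 in Tg (3.06, SE 0.53). In both the Tg arrays lay well above the WT arrays, with Tg replicate 2 the highest. Ighm probeset 17284605 had 7.14 and 7.37 in WT and 9.8 and 10.31 in Tg (2.80, SE 0.19). Ighm probeset 17284648 had 6.02 and 5.76 in WT and 8.28 and 8.97 in Tg (2.73, SE 0.24). These 4 probesets had replicates that lay closer together than the group means did.

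The other 3 Ighm probesets had a gap of at least 1.60 between the replicates of a group. Ighm probeset 17284360, given above, had a gap of that size as well, with 1.75 between the Tg arrays. Ighm probeset 17284503 had 4.97 and 4.78 in WT and 5.45 and 10.72 in Tg, so that its difference of 3.21 (SE 1.54) rested on Tg replicate 2. Ighm probeset 17284507 had 6.35 and 6.03 in WT and 9.35 and 7.75 in Tg (2.36, SE 0.49), with Tg replicate 1 the highest. Ighm probeset 17284660 had 6.58 and 3.45 in WT and 6.75 and 7.80 in Tg (2.26, SE 0.97), where WT replicate 1 lay just under the lower Tg array. Probesets of the same symbol thus differed in which array was high, and the 7 ranged from 2.26 to 3.29 in the group difference.

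The 2 probesets with Ighg3, the constant region of the IgG3 subclass, as their only symbol were higher on Tg replicate 1. A mixed probeset that also names Ighg3, given below, was higher on Tg replicate 2 (11.95 and 12.28 in Tg). As for Ighm, the annotation does not say whether each of these probesets reads the constant region itself. Probeset 17284344 of Ighg3 had 5.36 and 5.91 in WT, 9.21 on Tg replicate 1 and 5.75 on Tg replicate 2. Its groups overlapped, and the difference of 1.85 (SE 1.03) came from Tg replicate 1 alone. The other Ighg3 probeset, 17284614, had 5.05 and 5.03 in WT and 6.17 and 5.54 in Tg (0.81, SE 0.21), again highest on Tg replicate 1. No other immunoglobulin G subclass and no IgA, IgD or IgE constant region was among the probesets that the symbols selected, so those isotypes were not analysed here.

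A further 3 probesets mix constant and variable symbols of the heavy chain or add a kappa segment. The probeset of Ighv1-54, Igkv1-135 and Ighm had 8.20 and 8.13 in WT and 11.08 and 11.72 in Tg (3.23, SE 0.22). That of Ighg3, Ighv1-47 and Ighm had 8.74 and 9.67 in WT and 11.95 and 12.28 in Tg (2.91, SE 0.30). That of Ighv1-72 and Ighm had 7.92 and 8.33 in WT and 9.31 and 9.77 in Tg (1.42, SE 0.21). In all 3 the groups did not overlap, and the replicate pairs were within 1 of each other.

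Heavy chain V segments had both the second largest difference of the family and some of the smallest. Igh-VS107 probeset 17284463 had 5.04 and 4.29 in WT and 8.0 and 10.34 in Tg (difference 4.5, SE 0.73, 22.7-fold). Its value on WT replicate 2 lay below the first quartile of that array, 4.96, so the size of the fold is uncertain. The second Igh-VS107 probeset, 17284314, had 6.14 and 6.72 in WT and 8.03 and 8.36 in Tg (1.77, SE 0.22). Ighv1-53 had 7.61 and 7.50 in WT and 8.32 and 8.63 in Tg (0.92, SE 0.14). These 3 were higher on both Tg arrays. Ighv1-47 had 3.06 and 3.26 in WT, 3.37 on Tg replicate 1 and 7.29 on Tg replicate 2 (2.17, SE 1.15). Ighv1-54 stayed low at 3.20 and 3.17 in WT and 3.40 and 4.17 in Tg (0.60, SE 0.25). Both were highest on Tg replicate 2, without which the difference of Ighv1-54 was 0.21.

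Kappa light chain probesets had a median difference of 2.46 over 18 probesets, next to 2.31 over the 16 of the heavy chain. Igkv9-120 had the largest difference of the family, with 3.76 and 4.34 in WT and 9.69 and 11.45 in Tg (6.52, SE 0.55, 91.5-fold). Both WT values lay below the first quartile of their arrays, 4.93 and 4.96, so the fold is set by values near background and its size is uncertain. Igkj1, a joining segment that follows the V segments, had 6.75 and 6.16 in WT and 9.37 and 9.43 in Tg (2.95, SE 0.20). Here the Tg arrays agreed within 0.05. Igkv6-14 had 3.42 and 3.38 in WT and 6.11 and 6.31 in Tg (2.81, SE 0.12), with close replicates in both groups.

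Some kappa probesets already had a high signal in WT islets and were higher still in Tg. The probeset of Igkv4-53, Igkj1 and Igkv6-23 had 10.59 and 11.14 in WT and 13.00 and 13.42 in Tg (2.34, SE 0.23). Igkv5-43 probeset 17459421 had 9.63 and 9.73 in WT and 11.77 and 12.75 in Tg (2.58, SE 0.31). The probeset of Igkv9-124 and Igkv4-70 had 9.28 and 10.79 in WT and 12.60 and 12.64 in Tg (2.58, SE 0.45). In none of these 3 did the groups overlap. Igkv15-103 had 7.96 and 7.78 in WT and 9.08 and 10.93 in Tg (2.14, SE 0.55).

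Several V kappa segments stood higher on Tg replicate 2 than on Tg replicate 1. Igkv5-43 probeset 17467489 had 4.37 and 3.85 in WT and 6.25 and 8.35 in Tg (3.19, SE 0.64), and the third probeset of that segment, 17467483, had 3.5 and 4.31 in WT and 5.73 and 6.16 in Tg (2.05, SE 0.29). Igkv4-59 had 4.09 and 3.72 in WT and 5.00 and 8.66 in Tg (2.92, SE 1.08). Igkv4-72 had 6.61 and 6.18 in WT and 8.26 and 10.09 in Tg (2.78, SE 0.56). In each of these the Tg arrays differed more from each other than the WT arrays did, except in Igkv5-43 probeset 17467483. Igkv4-70 had 5.80 and 6.55 in WT and 8.0 and 9.61 in Tg (2.63, SE 0.53). Igkv8-30 had 4.98 and 4.43 in WT and 5.77 and 8.10 in Tg (2.23, SE 0.70). Igkv1-133 had 4.38 and 5.05 in WT and 5.80 and 7.91 in Tg (2.14, SE 0.66). In these 3, too, the groups did not overlap. Igkv4-91 differed most between the WT arrays among the kappa probesets, with 5.67 and 7.90 in WT and 8.99 and 9.17 in Tg (2.30, SE 0.66).

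A few kappa probesets differed little. Igkv9-124 by itself had 3.10 and 3.24 in WT and 3.28 and 4.68 in Tg (0.81, SE 0.42). Igkv6-23 had 3.69 and 3.51 in WT and 4.26 and 3.54 in Tg, so its groups overlapped (0.30, SE 0.24). Igkv8-19 had 4.28 and 4.41 in WT and 4.66 and 4.61 in Tg (0.29, SE 0.11). Together with Ighv1-54 they were the 4 probesets below the first quartile of both Tg arrays. In WT islets 10 of the 37 lay below the first quartile on both arrays and 20 on neither.

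The lambda light chain was represented by Iglv1, which had 4.97 and 4.73 in WT and 7.81 and 10.86 in Tg (4.48, SE 0.90, 22.4-fold). Its groups were far apart, as were the Tg arrays from each other. Its value on WT replicate 2 lay below the first quartile of that array, 4.96, so the size of the fold is uncertain. The heavy, kappa and lambda loci lie on different chromosomes, and probesets of all 3 were higher in Tg.

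Jchain, which lies outside the immunoglobulin loci and does not recombine, had 4.86 and 5.88 in WT and 8.47 and 10.06 in Tg (difference 3.89, SE 0.56, 14.9-fold). It was higher on both Tg arrays than on either WT array, highest on Tg replicate 2, and below the first quartile on WT replicate 1. It is the only member with a promoter in the RefSeq table used here, and is shown because it has a promoter of its own apart from the V segments. The 250 bases before its start site, at chr5:88527898-88528147 on the minus strand of GRCm38.p6, read 5′ to 3′ as follows, with E-boxes (CANNTG, the site type bound by E proteins such as Tcf3) in capitals.
Jchain: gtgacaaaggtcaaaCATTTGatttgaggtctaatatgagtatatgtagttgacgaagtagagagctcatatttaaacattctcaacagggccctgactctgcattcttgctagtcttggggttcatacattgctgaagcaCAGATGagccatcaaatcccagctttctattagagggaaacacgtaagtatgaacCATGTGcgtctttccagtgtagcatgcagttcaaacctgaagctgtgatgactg
The window holds 3 E-boxes, whose first bases lie 235, 109 and 54 bases before the start. An E-box occurs in 66.2% of all 32851 promoter windows of that length, so its presence is common. The octamer ATGCAAAT, on this strand or as ATTTGCAT on the other, is the element known from V segment promoters. It was not in the Jchain window, and 1.60% of all windows hold it.

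**Figure D2:**
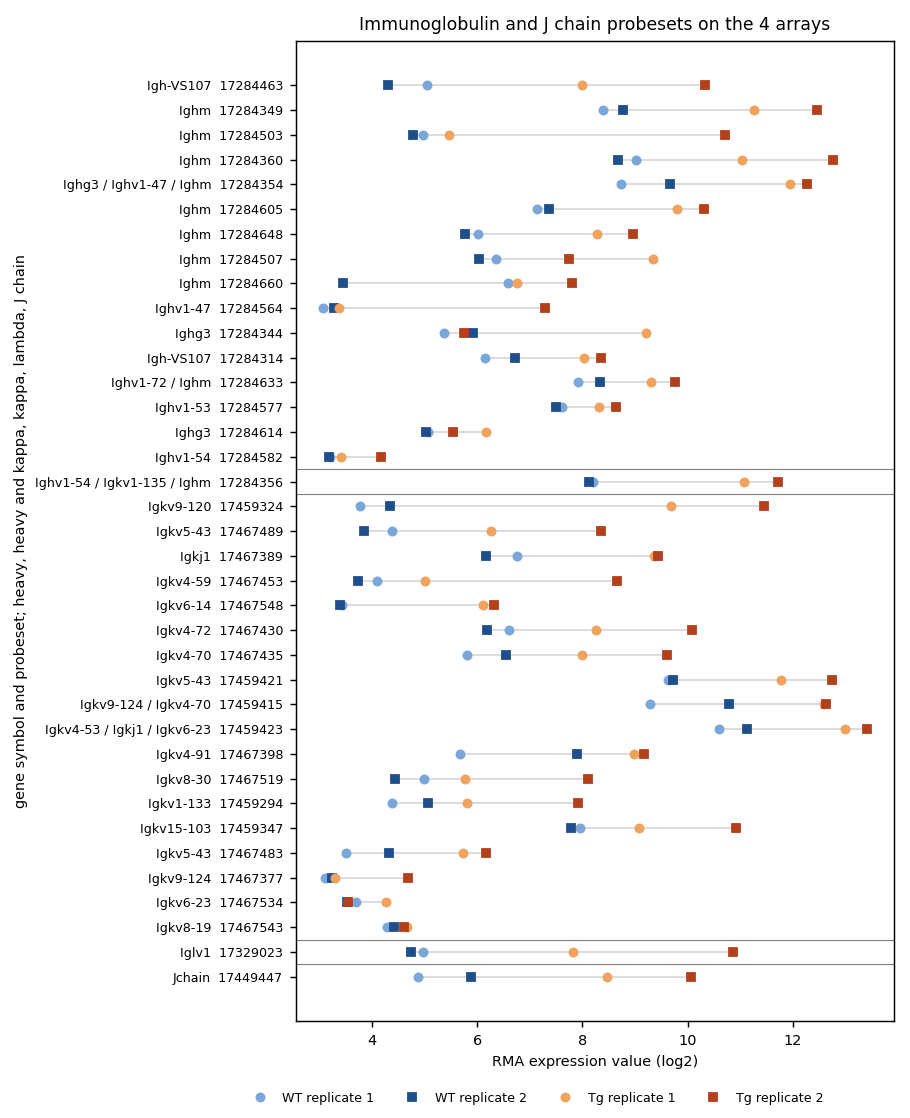
RMA values (log2) of each of the 37 probesets on the 4 arrays, with WT in blue, Tg in orange, circles for replicate 1 and squares for replicate 2; rows are grouped by chain and ordered by Tg minus WT difference. In 35 rows both Tg marks lie to the right of both WT marks, and in most of them the square of Tg replicate 2 lies furthest right.

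The Tg arrays differed from each other in the antibody genes far more than over all probesets. This was not particular to antibody genes. B cell genes and pan-leukocyte markers, described below, had median gaps (Tg replicate 2 minus 1) of -0.80 and -0.66. The median absolute difference between the Tg arrays was 1.06 over the 37 probesets and 0.13 over all probesets. A gap of at least 1 occurred in 19 of the 37 (51.4%), where 0.322% of all probesets had one. Tg replicate 2 was higher in 32 of the 37, with a median of 0.77. The direction was not shared by all. Gaps of at least 3 were found for Ighm probeset 17284503 (5.27), Ighv1-47 (3.92), Igkv4-59 (3.66) and Iglv1 (3.05), all higher on Tg replicate 2, and for Ighg3 probeset 17284344 (-3.46), higher on Tg replicate 1. Ighm probeset 17284507 (-1.60), Igkv6-23 (-0.71), the second Ighg3 probeset (-0.63) and Igkv8-19 (-0.04) were also lower on Tg replicate 2. The WT arrays had a median absolute gap of 0.39 over the 37 and of 0.14 over all probesets. Of the 37, 4 had a WT gap of at least 1, among them Jchain (1.02), Igkv4-91 (2.22) and Ighm probeset 17284660 (-3.13). With single arrays to compare, these gaps have no replicate check.

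**Figure D3:**
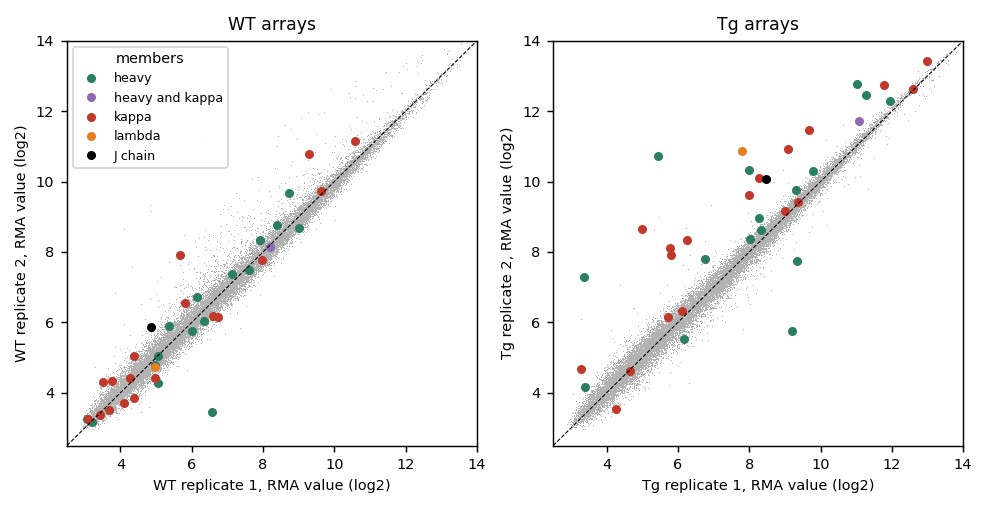
Replicate 2 against replicate 1 (RMA values, log2) for WT (left) and Tg (right), with all probesets in grey, the 37 members coloured by chain and the dashed line marking equal values. The members lie near the line in WT apart from a few, and 32 of the 37 lie above it in Tg, with Ighg3 probeset 17284344 furthest below.

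Genes that mark B cells were also higher in Tg islets, although none passed the test by itself. Of 19 measured genes of the B cell surface and receptor list, 19 had a higher Tg mean and in 17 both Tg arrays lay above both WT arrays (19.1% of all probesets), with a median difference of 0.97 (0.56 without Tg replicate 1 and 1.33 without Tg replicate 2). With limma, 0 of them had an adjusted p under 0.05. Bank1, a B cell adaptor protein, had 5.95 and 5.75 in WT and 8.30 and 7.36 in Tg (1.98, SE 0.30, adjusted p = 0.062). Cd79b, a signalling chain of the B cell receptor, had 7.39 and 7.20 in WT and 9.67 and 8.53 in Tg (1.81, SE 0.35, adjusted p = 0.12). Cd37, a tetraspanin of B cells (1.09, SE 0.17, adjusted p = 0.064), and Tnfrsf13c, the receptor for the survival factor BAFF (1.08, SE 0.19, adjusted p = 0.088), were near that threshold. The list had mean values of 6.16 and 6.19 in WT and 7.57 and 6.78 in Tg. All 19 genes were higher on Tg replicate 1 than on Tg replicate 2, with a median gap of -0.80, where 32 of the 37 antibody probesets were higher on Tg replicate 2. The B cell genes and the antibody genes thus ordered the Tg arrays in opposite ways, and what part either list plays in the other was not tested.

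Plasma cell genes had smaller differences as a list. Mzb1, a chaperone of antibody assembly in the endoplasmic reticulum, rose from 6.38 and 6.32 in WT to 7.39 and 7.55 in Tg (1.12, SE 0.11, adjusted p = 0.021 with limma). It was the only one of 13 measured genes past the test, where 0.666% of all probesets passed as higher. The list's median difference was 0.24 (0.15 to 0.34 with each array left out), and 9 of 13 were higher. Irf4, a transcription factor of plasma cells and activated lymphocytes, had 5.26 and 4.87 in WT and 6.14 and 5.85 in Tg (0.93, SE 0.18, adjusted p = 0.11). Slamf7, a surface receptor of plasma cells and other leukocytes (0.79, SE 0.17), and Tnfrsf13b, a receptor for BAFF and APRIL (0.47, SE 0.13), did not pass. Xbp1 (0.01, SE 0.11), Creld2 (-0.07, SE 0.11), Pim2 (-0.04, SE 0.12), Eaf2 (0.0, SE 0.14) and the plasma cell receptor Tnfrsf17 (0.10, SE 0.21) differed little. Sdc1 had the lowest difference of the list (-0.37, SE 0.39), with 6.76 and 8.04 in WT and 7.01 and 7.04 in Tg. A second probeset of Sdc1 had -0.02. All of these genes lay outside the naming rule and were picked after their values were seen. Secretory islet cells express Xbp1 and Creld2 strongly as well, and their part in these values was not tested. The list had mean values of 7.27 and 7.41 in WT and of 7.65 and 7.67 in Tg.

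Regulators of antibody transcription showed the order of the B cell genes. Of 9 measured factors 8 were higher in Tg (median 0.34, or 0.22 without Tg replicate 1 and 0.61 without Tg replicate 2), none passed the test, and all 9 were higher on Tg replicate 1 than on Tg replicate 2. Pou2af1, the coactivator that binds octamer factors on V segment promoters, had 6.07 and 6.61 in WT and 8.29 and 7.53 in Tg (1.57, SE 0.29, adjusted p = 0.10). Irf8 (1.06, SE 0.18, adjusted p = 0.084), Ikzf1 (0.85, SE 0.24, adjusted p = 0.28) and Spi1 (0.54, SE 0.13, adjusted p = 0.19), factors of B cell and myeloid development, were also higher without passing. A dimmer second probeset of Irf8 had 0.23.

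The machinery of recombination and the surrogate light chain of B cell precursors gave a flat list. Of 9 measured genes 5 were higher (median 0.02) and 0 passed the limma test. Below the first quartile lay 3 of the 9 on both WT arrays and 4 on both Tg arrays, with Rag2 and Igll1 in both counts. For genes so near background, a flat value does not show that expression was unchanged. Vpreb3 had a difference of 0.33 (SE 0.16), Xrcc4 of 0.17 (SE 0.13), Rag2 of -0.12 (SE 0.10) and Vpreb2 of -0.18 (SE 0.12). Igll1, the surrogate light chain gene whose symbol resembles the lambda genes but which is not among the 37, had 4.64 and 4.86 in WT and 4.88 and 4.81 in Tg (0.10, SE 0.12). Rag1 was not analysed here.

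Among receptors for antibodies, Fc gamma receptors and their signalling chain had higher Tg means and the transporters did not. Fcgr2b, the inhibitory Fc receptor of B cells and macrophages, rose from 6.58 and 6.56 in WT to 7.58 and 7.67 in Tg (1.06, SE 0.11, adjusted p = 0.021 with limma). Fcgr4 (0.77, SE 0.13, adjusted p = 0.073), Fcgr1 (0.73, SE 0.13, adjusted p = 0.085) and their signalling chain Fcer1g (0.62, SE 0.14, adjusted p = 0.18) were higher without passing. Pigr, which carries polymeric antibody with its J chain across epithelia, had 8.26 and 8.12 in WT and 7.78 and 7.64 in Tg (-0.48, SE 0.12), and the neonatal Fc receptor Fcgrt had -0.03 (SE 0.13); neither passed, and both were picked after their values were seen. Of the 10 genes, 5 were higher.

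Survival factors and attractants of B cells held 1 gene past the test among 12 measured genes, with a median of 0.25. Over all probesets 0.666% passed as higher. Ccr7, the receptor that guides lymphocytes into lymph nodes, rose from 7.01 and 6.59 in WT to 8.41 and 8.19 in Tg (1.5, SE 0.17, adjusted p = 0.032 with limma). Ccl28, a chemokine that attracts antibody-secreting cells to mucosae, had 9.54 and 9.38 in WT and 10.21 and 10.17 in Tg (0.73, SE 0.11, adjusted p = 0.067). Cxcr4 (0.95, SE 0.20) and Il6, a plasma cell growth factor (1.12, SE 0.29), did not pass. Tnfsf13b, the gene for BAFF, had 0.04 (SE 0.11) and was picked after its value was seen.

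Markers of other cells stood beside these differences. Of 8 pan-leukocyte markers 8 were higher in Tg (median 1.18). In all 8 both Tg arrays lay above both WT arrays, as in 19.1% of all probesets. The limma test was passed by 3, where 0.666% of all probesets passed as higher. Those past the limma test were Cd53 (1.74, SE 0.17, adjusted p = 0.021), Coro1a (0.94, SE 0.11, adjusted p = 0.032) and Cd48 (0.99, SE 0.13, adjusted p = 0.040). The 8 markers had a mean of 6.67 and 6.62 in WT and 8.21 and 7.56 in Tg. Their summed linear intensity was 1060 to 1090 in WT and 2170 to 3340 in Tg. All 12 T cell markers were higher (median 0.42, 0 past the test), led by Cd3g (1.25, SE 0.25), with a summed intensity of 590 to 632 in WT and 794 to 1060 in Tg, and all 12 were higher on Tg replicate 1. All 13 macrophage and dendritic markers were higher (median 0.46, 0 past the test), with Cd68 at 0.75 (SE 0.11, adjusted p = 0.056), and a summed intensity of 2510 to 3030 in WT and 4690 to 4820 in Tg. The summed intensity of the B cell list was 1520 on each WT array and 2470 to 4590 in Tg.

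Lymph node stroma and venule markers, a list included because nodes lie beside the pancreas, were higher for 7 of 7 measured genes (median 0.36, 0 past the test). Glycam1, a ligand for lymphocyte homing made by the venules of nodes, had 5.67 and 7.02 in WT and 8.19 and 9.10 in Tg (2.30, SE 0.49, adjusted p = 0.15). Selp, the adhesion receptor P-selectin, had 5.62 and 5.75 in WT and 7.94 and 6.98 in Tg (1.77, SE 0.30, adjusted p = 0.081). Madcam1 (0.36, SE 0.10) and Ackr1 (0.49, SE 0.10) were higher by less. The summed intensity of this list was 303 to 395 in WT and 818 to 920 in Tg. The islet hormone and beta cell genes had a summed intensity of 73400 and 67800 in WT and 69000 and 67900 in Tg. The sum was highest on WT replicate 1, and the median difference of this list was -0.04. Acinar markers did not follow the groups, with means of 12.19 and 13.28 in WT and 12.94 and 12.59 in Tg. Leukocyte, B cell, T cell, macrophage and lymph node lists thus had higher Tg medians, as the antibody probesets had. Between the Tg arrays, all B cell and T cell genes ran the other way, as did 7 of 8 pan-leukocyte markers (median gap -0.66). The plasma cell list did not, with a median gap of 0.10 and 5 of 13 genes higher on Tg replicate 1. The lymph node list had a median gap of -0.34, with 4 of 7 genes higher on Tg replicate 1, and the macrophage list had -0.05. The part of these lists in the antibody result was not tested.

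Across the 12 lists, 6 of 129 measured genes passed the limma test as higher and 0 as lower, at background rates of 0.666% and 0.192% of all probesets. The 6 were Mzb1, Fcgr2b, Ccr7, Cd53, Coro1a and Cd48. The count was 0 without Tg replicate 1, 10 without Tg replicate 2, 4 without WT replicate 1 and 1 without WT replicate 2. It was 14 with a variance trend and a robust prior, and 0 with the replicate block or without moderation.

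**Figure D4:**
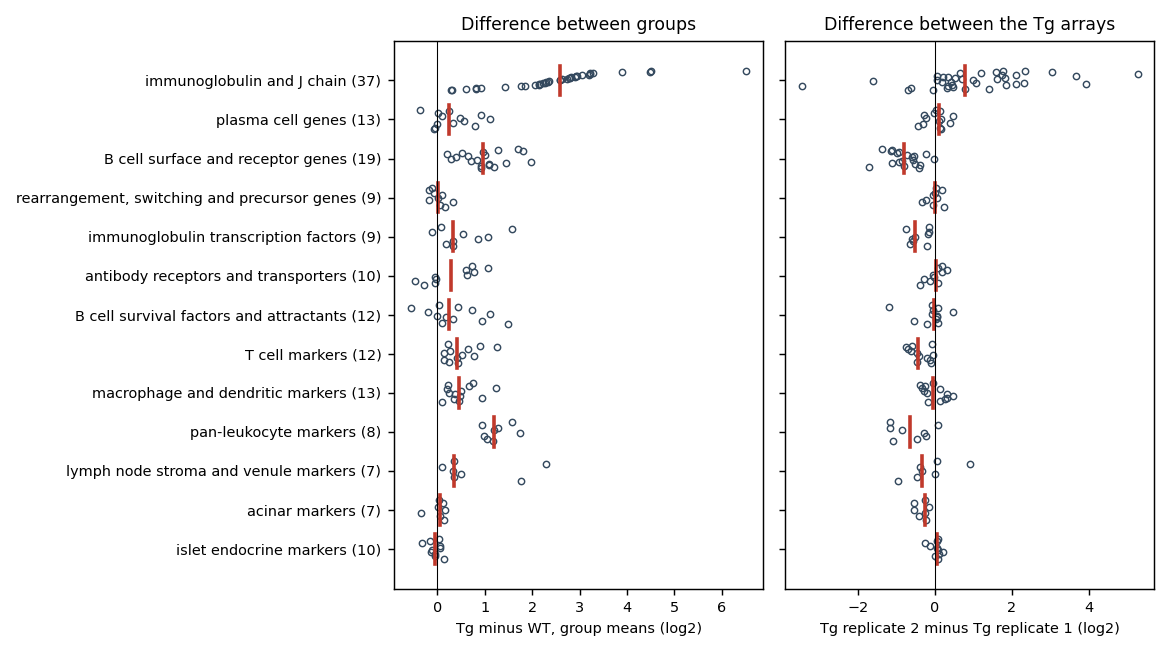
Each circle is a probeset of the antibody family or the probeset of a companion gene (number in brackets), and the red bar is the median of its row; the left panel shows Tg minus WT and the right panel Tg replicate 2 minus Tg replicate 1 (both log2). The antibody row has a median of 2.58 on the left and 0.77 on the right, while the B cell row has 0.97 on the left and -0.80 on the right.

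Other genes that lie within or beside the immunoglobulin loci were looked up as well. They were chosen after the data were seen, from the gene order of GRCm38.p6. Within the kappa locus, Rprl1 had 0.13 (SE 0.13) and 4930515G16Rik -0.12 (SE 0.15). The nearest measured genes at its ends were Il23r (0.44, SE 0.13), below the first quartile on all 4 arrays, and Rpia (-0.07, SE 0.11). Serbp1 (0.01, SE 0.11) lay further out than Il23r. Within the heavy chain locus, Adam6a had 0.09 (SE 0.11) and Adam6b -0.04 (SE 0.11). On either side of it Tmem121 had -0.04 (SE 0.13) and Zfp386 -0.18 (SE 0.11), while Crip1 (0.74, SE 0.16) and Vipr2 (-1.23, SE 0.22) differed more without passing the test. None of the 22 neighbouring genes of the 3 loci passed with limma, where 0.666% of all probesets passed as higher and 0.192% as lower, so this count says little. Of the 22, 10 lay below the first quartile on all 4 arrays, among them Adam6a, Adam6b and 4930515G16Rik.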

How the data were processed

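Pancreatic islet RNA of 2 WT and 2 Tg arrays was measured on Affymetrix Mouse Gene 2.0 ST arrays from 250 ng of total RNA, per the labels' protocols. Each deposited value is a log2 expression level of a probeset, and the processing notes of the submitters list RMA and Partek, with no version. RMA normalises arrays to each other by quantiles, so a shift of all genes would be hidden. The columns were grouped by sample title. No coordinates come from the array files, whose build no source used here states.

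All 27037 probesets entered limma 3.58.1 (R 4.3.3; lmFit, eBayes), with p-values adjusted by Benjamini-Hochberg over all of them (2 residual and 3.86 prior degrees of freedom). The smallest two-sided p of an exact permutation test is 0.333 at this size. The titles call replicates biological, and p-values measure only the spread between these arrays. Their number limits the precision. Symbols came from the platform annotation. The members and lists were chosen with earlier results of these data known. A companion gene was read by its single-symbol probeset with the highest mean, which 129 of 147 symbols had.

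Named were Jchain, constant region probesets, the 12 V probesets with the largest and the 4 with the lowest difference, the 4 brightest in WT, and up to 4 genes per list with the smallest p; the remaining members are added for completeness. The E-box search and the neighbouring genes were added after seeing the data, and the PU.1 box search was not part of the plan. Only the limma step was tested on simulated data. These had the same variance in both groups, whereas the antibody probesets spread more in Tg than in WT. The alternatives are named below.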

Additional observations from a re-analysis of the deposited data

How the results depend on the processing

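All alternatives were planned. The count of 12 antibody probesets past the adjusted threshold was 8 to 14 under renewed quantile normalisation, centring, the level filter (24 of the 37 left), single symbols (32 left) and a variance trend with robust prior. With no moderation it was 0 (at an unadjusted p under 0.05 there were 14, and 30 with moderation), 5 with the replicate block and 10 to 21 with each array left out. Between 8 and 9 of the 12 were shared when an array was left out, and 4 with the block. The 232 of all probesets became 369 with that trend, 0 with no moderation (unadjusted 2261, and 2993 with it), 41 with the replicate block and 73 to 146 with each array left out. The 6 companion genes became 14 with that trend, 0 with no moderation (unadjusted 19, and 61 with it), 0 with the replicate block (unadjusted 62) and 0 to 10 with each array left out. The block leaves fewer degrees of freedom, a fit without moderation has 2, and where an array is left out, the remaining single array borrows its spread from the other group. Replicate differences correlated at -0.077 between the groups, and the labels do not say that numbers pair arrays. The median difference of the family, 2.58, was 2.09 to 3.06 with each array left out and 2.47 to 2.76 otherwise. The count of 31 at least 2-fold higher was 30 to 32 with each array left out, 35 at 1.5-fold and 28 at 4-fold. Leaving out a Tg array moved single probesets far. Without Tg replicate 2, Ighm probeset 17284503 went from 3.21 to 0.58 and Igkv9-124 from 0.81 to 0.11. Without Tg replicate 1, Ighg3 probeset 17284344 went from 1.85 to 0.12. Igkv6-23 was -0.05 to 0.66 with each array left out, and below 0 without Tg replicate 1; the cause was not tested. With 7 of the 8 octamer letters 6.02% of promoter windows matched. The 10 probesets near background on both WT arrays give differences of uncertain size.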
